A study of Mus musculus with 8 samples.

Results

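The aquaporins described here are the 7 rows for Aqp1, Aqp3, Aqp4, Aqp7, Aqp8, Aqp9 and Aqp11 among the 22946 rows of a gene count table from mouse liver RNA-seq. The rows were found by their symbols, and none was merged with another gene. The family was selected on the measured values of Aqp4, so the levels of Aqp4 are given as a description with no test. Of the 7 rows, 5 passed the filter on low counts and 2 (Aqp3 and Aqp7) did not. Besides Aqp4, 4 rows were therefore tested, namely Aqp1, Aqp8, Aqp9 and Aqp11.

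The study set wild-type mice of a strain labelled C57 Black against mice labelled MLL4 het, heterozygous for the histone methyltransferase MLL4 (gene Kmt2d), on a normal chow diet or a high fat diet (HFD). All were 8 weeks old when the diets began and ate them for 8 weeks. The 4 groups were wild-type on chow (libraries 1 and 2), wild-type on HFD (libraries 5 and 6), het-labelled on chow (libraries 3 and 4) and het-labelled on HFD (libraries 7 and 8). The labels name neither the mutated allele nor the composition of the diets, and they do not say that the libraries came from separate animals, so the spread between the 2 libraries of a group may be technical. According to the series' design text, the aim was to find genes whose response to HFD was weaker in the het livers.

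Aquaporins are membrane channels that let water cross a membrane along an osmotic gradient. Some, called aquaglyceroporins, also pass glycerol and other small uncharged solutes, and among the members these are Aqp3, Aqp7 and Aqp9. In liver, Aqp9 lies in the sinusoidal membrane of hepatocytes and takes up glycerol for glucose and triglyceride synthesis. Aqp8 is a hepatocyte channel of intracellular vesicles, the bile canalicular membrane and mitochondria, and it also passes ammonia and hydrogen peroxide. Aqp1 is the water channel of endothelium, bile duct cells and red blood cells. Aqp11 belongs to a divergent branch of the family and lies in the endoplasmic reticulum. Aqp4 is best known from astrocytes, the cells that line brain water spaces, and Aqp7 from fat cells, where it releases glycerol.

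The sequences before the start sites of Aqp8 and Aqp9 are shown because Aqp8 was the tested member that passed the threshold in some comparisons, and Aqp9 was the most abundant and did not. Each is the 250 bases before a transcript start in RefSeq (build GRCm38.p6), read 5′ to 3′ on the gene's strand. Aqp8 on the plus strand is chr7:123462044-123462293, and the 2 starts of Aqp9 on the minus strand are chr9:71163290-71163539 and chr9:71162634-71162883. Capitals mark a match to a searched motif.
Aqp8: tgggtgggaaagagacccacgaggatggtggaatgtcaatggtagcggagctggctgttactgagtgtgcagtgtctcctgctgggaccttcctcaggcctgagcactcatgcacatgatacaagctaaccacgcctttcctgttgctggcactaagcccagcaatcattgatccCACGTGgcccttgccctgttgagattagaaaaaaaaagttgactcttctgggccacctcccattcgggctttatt
Aqp9, first start: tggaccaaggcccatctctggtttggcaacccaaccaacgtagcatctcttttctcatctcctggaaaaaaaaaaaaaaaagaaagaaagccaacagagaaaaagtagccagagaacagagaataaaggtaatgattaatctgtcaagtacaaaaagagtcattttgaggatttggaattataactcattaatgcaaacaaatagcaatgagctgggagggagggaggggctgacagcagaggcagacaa
Aqp9, second start: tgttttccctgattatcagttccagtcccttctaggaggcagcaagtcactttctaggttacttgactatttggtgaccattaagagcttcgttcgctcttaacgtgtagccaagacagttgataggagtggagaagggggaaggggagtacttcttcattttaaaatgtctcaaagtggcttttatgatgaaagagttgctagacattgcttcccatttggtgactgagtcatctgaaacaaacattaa
The motifs, searched on both strands, were TATAAA (a core promoter box), CCAAT (bound by NF-Y), CACGTG (an E-box), AGGTCA (the core of nuclear receptor sites), its direct repeat with 1 base between, TGTTTAC (FOXA), the letters GTTAAT, TTGCGCAA (C/EBP) and TTCNNNGAA (STAT). In the window of Aqp8 the only match was the E-box, which reads the same on both strands and lies 75 to 70 bases before the start. An E-box was found in 6.02% of the 32817 windows of this length in the table. Neither window of Aqp9 and not that of Aqp1 held a match, and that of Aqp11 held AGGTCA on the opposite strand, and 14.0% of all windows held it on either strand. A match is a run of letters and not a measured binding site.

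The libraries held between 14142884 and 18928676 counts, so 3 counts correspond to 0.161 to 0.213 CPM (counts per 1000000 counts of a library, its size scaled by edgeR). In 12593 tested rows the common coefficient of variation between libraries of a group was 11.2%. The gene named in the genotype was taken to be the row Mll2. RefSeq lists this older symbol for both Kmt2d and the related Kmt2b, and it was assigned to Kmt2d because Wbp7, another older symbol of Kmt2b, has a row of its own. Mll2 stood at 61.2 and 69.6 CPM on chow against 63.3 and 64.7 CPM on HFD in wild-type livers, and 60.0 and 72.1 CPM on chow against 62.8 and 75.4 CPM on HFD in het-labelled livers. Het-labelled and wild-type libraries were not called different (log2 difference of het-labelled to wild-type averaged over diets 0.061, 95% interval -0.14 to 0.26, edgeR adjusted p = 0.747), and the libraries are therefore called het-labelled. An allele that removes only part of the transcript need not lower a count over the whole gene. The 8 hepatocyte markers were high in every library. Their sum, most of it albumin (Alb), was lower on HFD. It was 84112 to 89569 CPM on chow against 74048 to 74105 on HFD in wild-type livers, and 81266 to 87568 on chow against 71672 to 74192 on HFD in het-labelled livers. Alb itself was not called for diet in wild-type (log2 difference -0.23, edgeR adjusted p = 0.432) or het-labelled livers (-0.33, adjusted p = 0.269). Of the 8, Ahsg (log2 difference -0.59, adjusted p = 0.0336) and Cps1 (-0.65, adjusted p = 0.0188) were called lower on HFD in wild-type livers, where 2.22% of all rows were called lower. In het-labelled livers 0 of the 8 were called for diet, where 3.02% of all rows were. Some markers had positive diet differences that were not called, Tat (0.30) and Ttr (0.065) in wild-type livers and Tat (0.57) and Apoa1 (0.49) in het-labelled livers. The rest had negative ones. In bulk tissue fewer cells of a type and less RNA per cell cannot be told apart.

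Aqp4 was low in chow livers, higher on HFD, and lower in het-labelled livers on either diet. The wild-type chow libraries held 45 and 64 Aqp4 counts, or 2.84 and 3.71 CPM. The wild-type HFD libraries held 258 and 265 counts, or 14.9 and 14.5 CPM. The het-labelled chow libraries held 6 and 9 counts (0.425 and 0.612 CPM), and the het-labelled HFD libraries 33 and 26 counts (1.77 and 1.85 CPM). No group overlapped another, and the order from low to high was het-labelled chow, het-labelled HFD, wild-type chow and wild-type HFD. The highest level on HFD in het-labelled livers, 1.85 CPM, was below the lowest on chow in wild-type livers, 2.84 CPM.

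In fitted values, Aqp4 was 4.47-fold higher on HFD than on chow in wild-type livers and 3.43-fold higher in het-labelled livers, or 2.16 and 1.78 on the log2 scale. It was 6.23-fold lower in het-labelled than in wild-type livers on chow and 8.10-fold lower on HFD. The diet difference in het-labelled livers minus that in wild-type livers was -0.38 on the log2 scale. That value rested on single chow libraries, at -0.18 without library 1, -0.59 without library 2, -0.61 without library 3 and -0.068 without library 4. With one library left out at a time, the diet difference in wild-type livers ranged from 1.96 to 2.37 and that in het-labelled livers from 1.55 to 2.07. The diet and genotype differences share libraries, and the het-labelled chow values rest on 15 counts in all. The gene lies on the minus strand of chromosome 18, from 15389496 to 15410982 in GRCm38, where a gene annotated as antisense overlaps it. Whether the counts were taken by strand is not given in the sources used here, so reads of the antisense gene cannot be told apart from those of Aqp4.

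**Figure D1:**
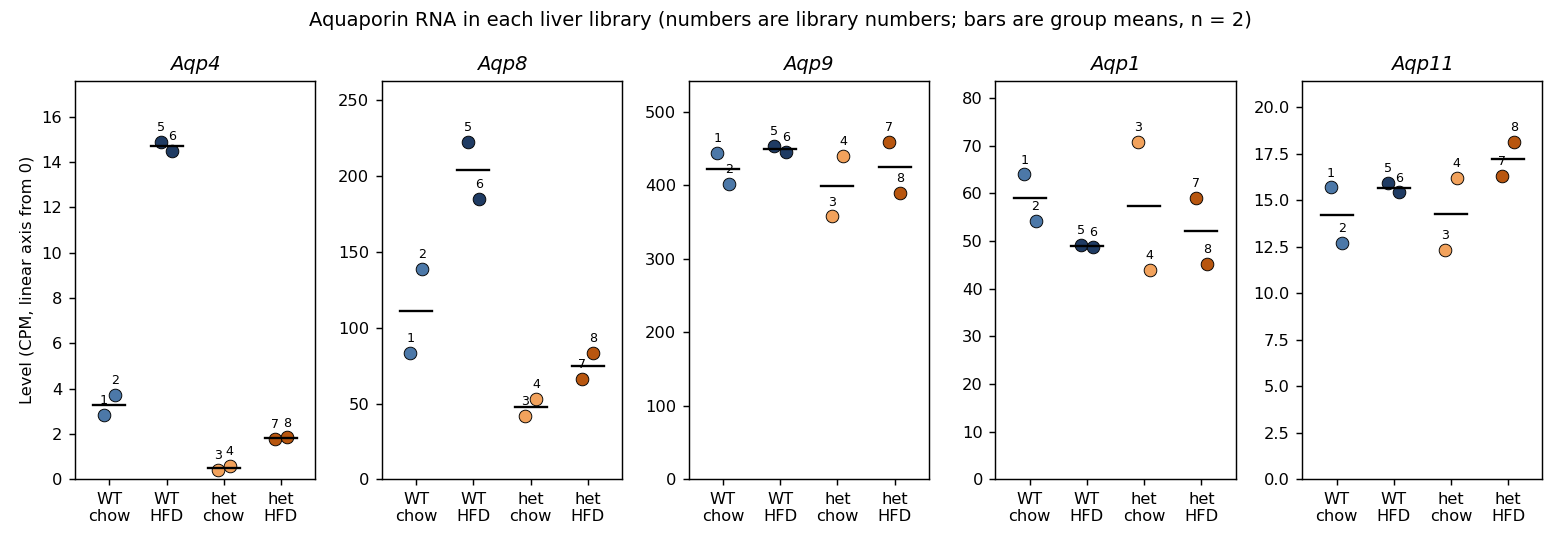
Level of each aquaporin that passed the filter, in CPM on linear axes from 0, in each of the 8 libraries by group (WT, wild-type; het, het-labelled). Points are libraries with their numbers and bars are means of 2. Aqp4 and Aqp8 lie highest in wild-type HFD (14.5 to 14.9 and 185 to 223 CPM), while Aqp9 stays between 358 and 459 CPM, Aqp1 between 44.0 and 70.8 CPM and Aqp11 between 12.3 and 18.1 CPM.

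Aqp8 RNA was lower in het-labelled livers and higher on HFD when each factor was averaged over the other. The gene lies on chromosome 7, from 123462291 to 123468004 on the plus strand (GRCm38), with no overlapping gene in the annotation. The wild-type chow libraries stood at 83.7 and 139 CPM, from 1328 and 2398 counts, and the wild-type HFD libraries at 223 and 185 CPM, from 3857 and 3387 counts. The het-labelled chow libraries stood at 41.6 and 53.3 CPM, and the het-labelled HFD libraries at 66.1 and 83.6 CPM. Within a diet every wild-type library lay above every het-labelled library, and within a genotype every HFD library lay above every chow library. The wild-type chow group (111 ± 39.1 CPM, SD, n = 2) had the widest spread of the 4, and its library 1 (83.7 CPM) lay next to library 8 of the het-labelled HFD group (83.6 CPM).

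Averaged over the diets, Aqp8 was 2.53-fold lower in het-labelled livers (log2 difference -1.34 ± 0.17 SE, edgeR adjusted p = 0.0128). Of the 4 tested members it was the 1 called, where 3.24% of all tested rows were called. It was called under all 12 alternative settings, with log2 differences from -1.50 to -1.13 and adjusted p from 2.16e-16 to 0.0377. On HFD alone Aqp8 was 2.73-fold lower (log2 difference -1.45 ± 0.23 SE, adjusted p = 0.0459), again the 1 call among 4 members, where 0.445% of all rows were called. That call sits at the threshold and was lost without library 5 (adjusted p = 0.227), 6 (0.0869), 7 (0.0806) or 8 (0.133), and the alternatives ran down to 4.18e-09. Each of these omissions leaves a group with 1 library that is assumed to vary like the rest. On chow alone the difference was 2.35-fold (log2 -1.23 ± 0.24 SE) and did not pass in edgeR (adjusted p = 0.0641), while DESeq2 called it (adjusted p = 2.35e-06, with the other alternatives up to 0.348). None of the 4 members was called on chow by edgeR, 1 was by DESeq2 and 1 had an unadjusted p under 0.05, and 0.516% of all rows were called there.

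Averaged over the genotypes, Aqp8 was 1.70-fold higher on HFD (log2 difference 0.76 ± 0.16 SE, edgeR adjusted p = 0.0218). It was the 1 member of 4 called, where 10.4% of all rows were called. The call was lost without library 1, 3, 5 or 8, with adjusted p over all alternatives from 1.40e-05 to 0.0793 and log2 differences between 0.59 and 0.97. Within wild-type livers Aqp8 was 1.83-fold higher on HFD (log2 0.87 ± 0.23 SE, adjusted p = 0.0711), and within het-labelled livers 1.58-fold higher (log2 0.66 ± 0.24 SE, adjusted p = 0.184). Neither passed in edgeR, and both did in DESeq2 (adjusted p = 0.00173 and 0.0436), while over the alternatives the adjusted p reached 0.379 and 0.484. Of the 4 members, edgeR called 0 in either genotype, DESeq2 called 1 and 1 had an unadjusted p under 0.05, beside 4.59% of all rows called in wild-type and 3.02% in het-labelled livers.

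The diet difference of Aqp8 was not shown to differ between the genotypes. Its interaction was -0.22 ± 0.33 SE on the log2 scale, with a 95% interval from -0.96 to 0.53 and an edgeR adjusted p of 0.894, and without library 1 it was 0.13. This interval holds both equal and unequal diet responses. No member and no row of the table was called for the interaction (0%) by edgeR, where 0 of the 4 members and 900 rows had an unadjusted p under 0.05. DESeq2 called 29 rows, none of them a tested member.

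**Figure D2:**
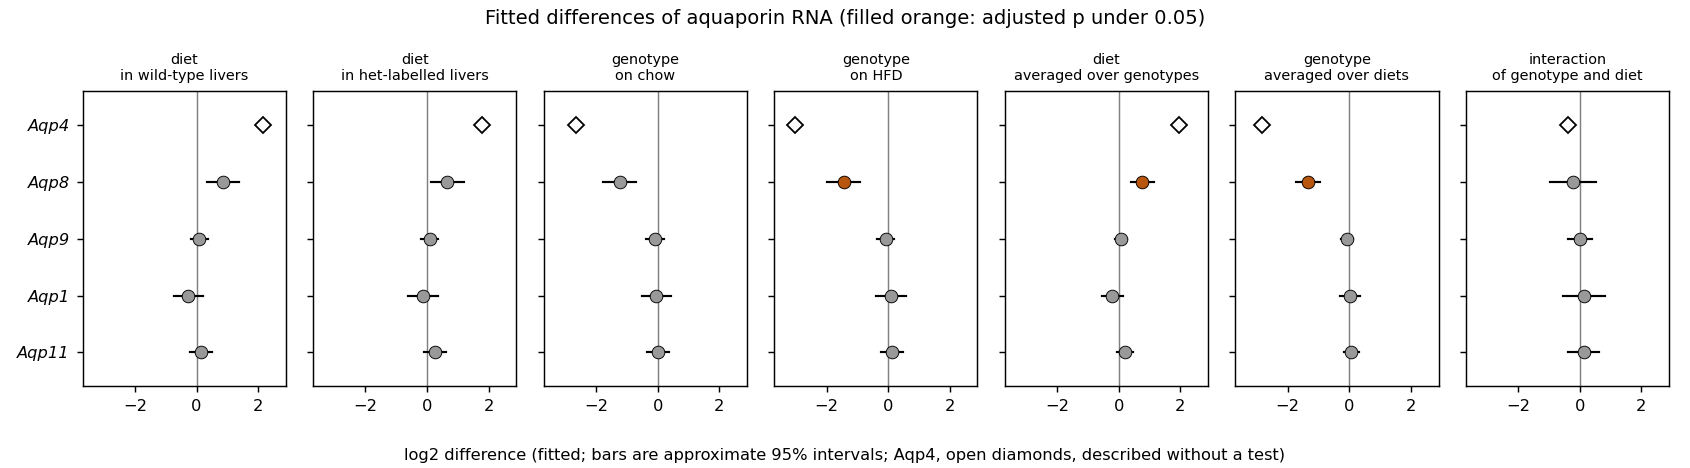
Fitted log2 differences of Aqp4, Aqp8, Aqp9, Aqp1 and Aqp11 in 7 comparisons, with the difference on the horizontal axis (HFD minus chow for diet, het-labelled minus wild-type for genotype). Circles are tested members with approximate 95% intervals, orange where the adjusted p was under 0.05, and open diamonds are Aqp4 with no test. Aqp8 lies at -1.34 for genotype averaged over diets, while Aqp9, Aqp1 and Aqp11 lie within 0.27 of 0 throughout.

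**Figure D3:**
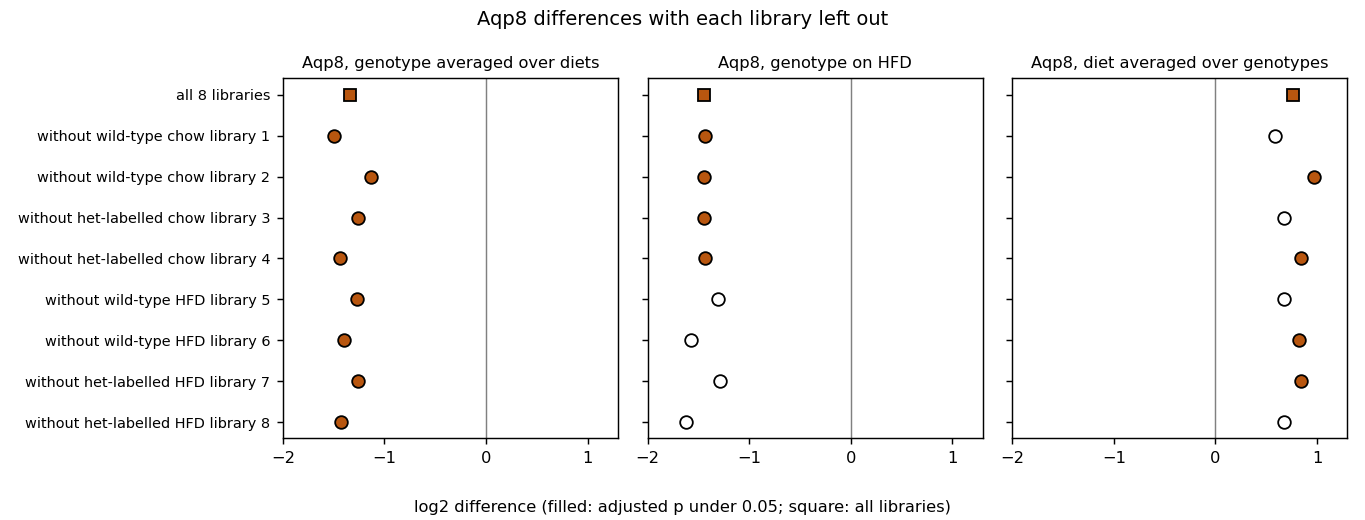
Log2 difference of Aqp8 in the 3 comparisons where it was called, with all 8 libraries (square) and with each library left out (circles), filled where the adjusted p was under 0.05. The genotype difference averaged over diets stays filled in every row, and 4 circles are empty in each of the other panels.

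Summed markers of other cell types differed between the same groups. The red blood cell list (6 rows, 3 of them tested) summed to 258 to 320 CPM on chow against 654 to 829 on HFD in wild-type livers, and 240 to 253 on chow against 350 to 371 on HFD in het-labelled livers. In wild-type livers the merged globin rows Hba-a1+Hba-a2 and Hbb-b1+Hbb-b2 rose on HFD by 1.79 and 1.91 on the log2 scale (adjusted p = 0.00261 and 0.00181). Slc4a1, the red cell anion exchanger, had 1 and 1 counts on chow against 7 and 6 on HFD in wild-type livers, and 1 and 0 on chow against 5 and 3 on HFD in het-labelled livers. Alas2, the first enzyme of heme synthesis in red cell precursors, was lower in het-labelled than in wild-type livers averaged over diets (log2 difference -0.96, adjusted p = 0.000827), on HFD (-1.10, adjusted p = 0.00411) and on chow (-0.81, adjusted p = 0.0262). For diet it was not called, at 0.24 in wild-type and -0.050 in het-labelled livers. Of the globin rows only Hbb-b1+Hbb-b2 was called for genotype, on HFD (-1.13, adjusted p = 0.0459). The Hba-a1+Hba-a2 and Hbb-b1+Hbb-b2 genotype differences were 0.036 and 0.16 on chow, and -0.47 and -0.49 averaged over diets. The adipocyte list (6 rows) summed to 5.10 to 5.68, 20.2 to 27.6, 4.42 to 5.88 and 5.97 to 9.66 CPM in the same order of groups. Fabp4 averaged 4.82, 6.87, 5.08 and 5.02 CPM in that order, and Cfd 0.542, 17.0, 0.0340 and 2.56 CPM. In het-labelled HFD Cfd was uneven, at 4.83 and 0.284 CPM. The defining fat cell genes Adipoq (adiponectin), Plin1, Lep (leptin) and Retn had under 10 counts each over all libraries. The Kupffer cell list (7 rows) summed to 126 to 135, 124 to 132, 308 to 385 and 134 to 211 CPM, with 5 of its 7 genes called higher in het-labelled livers averaged over diets, where 1.21% of all rows were. Within het-labelled livers 4 of the 7 were called lower on HFD than on chow, where 1.48% of all rows were. Between the genotypes on HFD 0 of the 7 were called, with a median log2 difference of 0.49 (het-labelled minus wild-type), where 0.445% of all rows were called. The part of these cells, and of the lower hepatocyte marker sums on HFD, in the differences of Aqp4 and Aqp8 was not tested.

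Aqp4 and Aqp8 varied together over the libraries. On the log2(CPM + 0.5) scale their Pearson correlation over the 8 libraries was 0.971, given as a description, since the libraries share the diets and genotypes and Aqp4 was chosen for its pattern. The other 9 pairs of members had correlations between -0.616 (Aqp1 with Aqp11) and 0.531 (Aqp9 with Aqp11). Aqp4 spanned the wider range, so its CPM as a share of that of Aqp8 was not constant. That share was 2.67% to 3.39% on chow against 6.69% to 7.82% on HFD in wild-type livers, and 1.02% to 1.15% on chow against 2.21% to 2.68% on HFD in het-labelled livers.

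**Figure D4:**
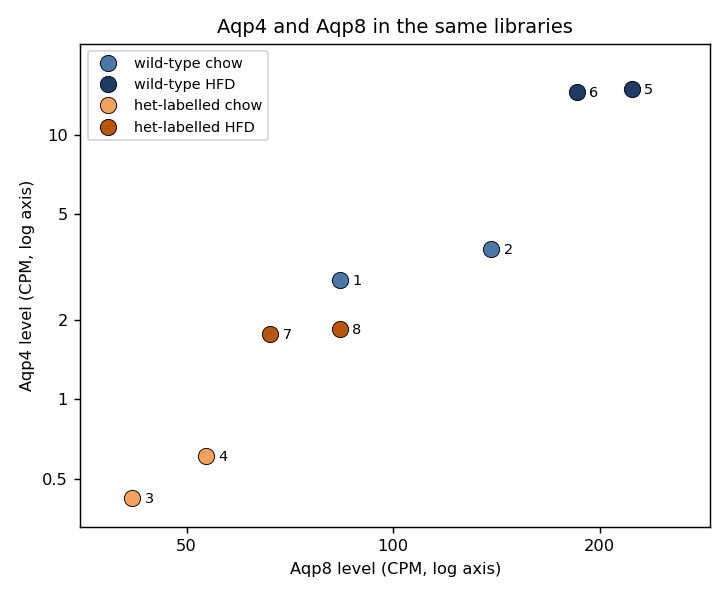
Aqp4 level against Aqp8 level in each of the 8 libraries, in CPM on log axes, coloured by group and numbered by library. The points run from 41.6 CPM of Aqp8 with 0.425 CPM of Aqp4 in library 3 to 223 CPM with 14.9 CPM in library 5.

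Among rows averaging 1 CPM or more, the 5 whose pattern over the 8 libraries was most like that of Aqp4 were Ppa1 (r = 0.992), an inorganic pyrophosphatase, Galk1 (0.989), which phosphorylates galactose, Acadm (0.987), which oxidises medium-chain fatty acids, Suclg1 (0.984), a citric acid cycle subunit, and Pex7 (0.982), a peroxisomal import receptor. Their levels moved far less than that of Aqp4. Acadm averaged 271 CPM on chow against 357 on HFD in wild-type livers, and 225 on chow against 261 on HFD in het-labelled livers. Galk1 averaged 36.9, 49.5, 29.7 and 35.1 CPM in that order of groups. The rows most like Aqp8 were Ebpl, Fam126a, Taldo1, Rmnd5a and Ppa1. Ebpl, a relative of a sterol isomerase, averaged 53.0, 68.4, 38.6 and 49.2 CPM. These are the top of 11585 rows ranked over 8 points, so high values occur among them by selection.

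Aqp9, the glycerol channel of hepatocytes, was the most abundant member and differed little between groups. Its level was 444 and 402 CPM on chow against 454 and 445 on HFD in wild-type livers, and 358 and 440 on chow against 459 and 389 on HFD in het-labelled livers. The groups overlapped, except that wild-type HFD (lowest 445 CPM) lay just above both chow groups (highest 444 CPM). Averaged over the genotypes the diet difference was 0.089 on the log2 scale (95% interval -0.11 to 0.29, adjusted p = 0.578), and averaged over the diets the genotype difference was -0.084 (interval -0.28 to 0.11, adjusted p = 0.632). It was not called in any of the 7 comparisons by edgeR or DESeq2, and no unadjusted p was under 0.05. The upper end of the diet interval is a 1.22-fold rise. An antisense gene and a processed pseudogene overlap Aqp9 in the GRCm38 annotation (chromosome 9, 71110659 to 71168682, minus strand). The rows most like it in pattern were Angptl6, Ciao1, Rnpepl1, 2010003O02Rik and Rffl.

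Some genes on a list of glycerol and triglyceride-glycerol metabolism rose on HFD, and the glycerol kinase row Gyk did not clearly do so. Of 14 listed genes, all tested, 4 were called higher and 0 lower on HFD in wild-type livers (2.37% of all rows were called higher), with a median log2 difference of 0.43 beside 0.023 over all rows. They were Mgll, which frees glycerol from monoglycerides (1.54, adjusted p = 0.000628), Gpd2 (1.28, adjusted p = 0.00374) and Gpd1 (0.99, adjusted p = 0.00639), the mitochondrial and cytosolic glycerol-3-phosphate dehydrogenases, and Agpat2 (0.76, adjusted p = 0.0207), a step of triglyceride synthesis. In het-labelled livers Mgll (1.10, adjusted p = 0.00546) and Gpd2 (0.90, adjusted p = 0.0238) were called higher and none lower (1.53% and 1.48% of all rows). Gyk was not called for diet in wild-type (0.11, adjusted p = 0.771) or het-labelled livers (0.075, adjusted p = 0.860). Gpd1 stood at 370 and 375 CPM on chow against 740 and 736 on HFD in wild-type livers, and 264 and 233 on chow against 421 and 314 on HFD in het-labelled livers. In the genotype comparison on HFD Gpd1 was the 1 gene of the list called, at -1.01 (adjusted p = 0.0278), where 0.445% of all rows were called. On chow edgeR called 0 of the list, where 0.516% of all rows were called. There 4 of the list had an unadjusted p under 0.05 and DESeq2 called 3. Averaged over the diets, 3 of the 14 were called lower in het-labelled livers, where 2.03% of all rows were. They were Gpd1 (-0.80, adjusted p = 0.0103), the lipin Lpin2 (-0.89, adjusted p = 0.0207) and Pck1 (-0.40, adjusted p = 0.0406), a control point of gluconeogenesis and glyceroneogenesis. The Pck1 difference was -0.65 on chow (adjusted p = 0.0611) and -0.16 on HFD (adjusted p = 0.607), and neither was called.

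Aqp1 did not pass in any comparison in edgeR or DESeq2, and no unadjusted p was under 0.05. Its level was 63.9 and 54.1 CPM on chow against 49.2 and 48.8 on HFD in wild-type livers, and 70.8 and 44.0 on chow against 59.0 and 45.2 on HFD in het-labelled livers. Both wild-type HFD libraries lay below both wild-type chow libraries, and the het-labelled groups overlapped each other and both wild-type groups. The gene lies on chromosome 6, from 55336432 to 55348555 on the plus strand (GRCm38), with no overlapping gene in the annotation. The diet difference averaged over genotypes was -0.20 on the log2 scale (95% interval -0.54 to 0.13, adjusted p = 0.446) and the genotype difference averaged over diets 0.024 (interval -0.31 to 0.36, adjusted p = 0.948). Liver endothelial markers (8 rows, all tested) summed to 139 to 169, 159 to 164, 146 to 215 and 138 to 179 CPM in wild-type chow, wild-type HFD, het-labelled chow and het-labelled HFD libraries. Bile duct markers summed to 53.8 to 64.4, 48.7 to 57.8, 47.8 to 48.9 and 41.5 to 49.4 CPM, mostly Spp1, and the ductal keratin Krt19 stayed at or under 1.39 CPM. None of the 8 endothelial and 5 tested bile duct markers was called in any of the 7 comparisons by edgeR or DESeq2, and an unadjusted p under 0.05 occurred in 4 of 56 endothelial and 2 of 35 bile duct tests. The endothelial marker Oit3 was among the 5 rows most like Aqp1, with Eapp, Mtpn, Psd3 and Eltd1.

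Aqp11, the endoplasmic reticulum member, also did not pass in any comparison in edgeR or DESeq2 and had no unadjusted p under 0.05. Its level was 15.7 and 12.7 CPM on chow against 15.9 and 15.4 on HFD in wild-type livers, and 12.3 and 16.2 on chow against 16.3 and 18.1 on HFD in het-labelled livers, from 174 to 304 counts. The gene lies on chromosome 7, from 97724006 to 97738289 on the minus strand (GRCm38). The HFD and chow libraries overlapped in wild-type livers, and in het-labelled livers the lower HFD library (16.3 CPM) lay just above the higher chow library (16.2 CPM). On HFD both het-labelled libraries lay above both wild-type libraries. The diet difference averaged over genotypes was 0.21 on the log2 scale (95% interval -0.047 to 0.46, adjusted p = 0.292), and the genotype difference averaged over diets 0.072 (interval -0.18 to 0.33, adjusted p = 0.765). The rows most like it were Gpd1l, Lrig3, Csk, Commd9 and Scai.

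Aqp3 and Aqp7, the remaining aquaglyceroporins, were not detectable above the limit of 3 counts in any library. Aqp3 had 1 count in library 2, 1 in library 4 and 0 in the other 6. Aqp7 had 0 and 1 counts on chow against 3 and 3 on HFD in wild-type livers, and 0 and 2 on chow against 1 and 2 on HFD in het-labelled livers. No fold was computed for either gene. Of the family rows outside the list, the lens channel Mip and Aqp5 had 1 count each over all libraries, and Aqp2, Aqp6 and Aqp12 had 0.

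Compared between genes per length of the longest coding transcript in GENCODE (GRCm38), group means ran from Aqp9 at 151 to 170 CPM per kb, through Aqp8 at 31.9 to 137 and Aqp1 at 18.7 to 22.5, to Aqp11 at 3.80 to 4.61. Aqp4 came last among the detected members at 0.103 to 2.91 CPM per kb. In wild-type HFD livers Aqp8 (137 ± 17.8 CPM per kb, SD, n = 2) came near Aqp9 (170 ± 2.29) on this length only. Per length of the shortest coding transcript, Aqp8 stood at 141 and Aqp9 at 263 CPM per kb in these livers. In het-labelled chow livers Aqp8 (31.9 ± 5.55) was nearest to Aqp1 (21.8 ± 7.23), with a gap smaller than their summed SD. With the shortest annotated coding transcript Aqp4 reached 13.3 CPM per kb in wild-type HFD livers, above Aqp11, so the order of these 2 depends on the transcript assumed.

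Other hepatocyte functions tied to aquaporins moved in part. Of 12 tested bile transporters, 2 were called higher on HFD in wild-type livers and 0 lower (2.37% and 2.22% of all rows), the sterol transporter Abcg5 (1.59 on the log2 scale, adjusted p = 0.0211) and the drug transporter Abcg2 (0.57, adjusted p = 0.0239). Abcg5 (1.78, adjusted p = 0.0227) and its partner Abcg8 (1.41, adjusted p = 0.0409) were called higher in het-labelled livers, where 1.53% of all rows were. Averaged over genotypes 5 were called higher on HFD and 2 lower (5.56% and 4.84% of all rows). The lower ones, named here after their values were seen, were the bile salt export pump Abcb11 (-0.30, adjusted p = 0.035) and the basolateral exporter Abcc3 (-0.64, adjusted p = 0.0257). Abcg5 was uneven in wild-type HFD, at 150 and 313 CPM. For genotype edgeR called 0 bile transporters on chow, on HFD and averaged, where 0, 3 and 3 had an unadjusted p under 0.05 and DESeq2 called 0, 1 and 1. The median of the list was 0.12 on HFD in wild-type livers, beside 0.023 over all rows.

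Of 8 tested genes of urea and ammonia handling, Cps1 (-0.65, adjusted p = 0.0188) and the merged row Gm5424+Ass1 (-0.62, adjusted p = 0.0174), enzymes of the urea cycle, were called lower on HFD in wild-type livers, where 2.22% of all rows were. In het-labelled livers edgeR called 0, 1 had an unadjusted p under 0.05 and DESeq2 called 1. The interaction was called for 0 of the 8 by either tool, with 1 at an unadjusted p under 0.05. The ammonia channel Rhbg was the 1 of the 8 called lower in het-labelled livers averaged over diets (-0.74, adjusted p = 0.0285), where 2.03% of all rows were. Of 12 genes that handle hydrogen peroxide, the peroxidase Gpx4 was the 1 called by edgeR in any comparison, lower in het-labelled livers averaged over diets (-0.33, adjusted p = 0.0494), where 2.03% of all rows were. This was 1 call in 84 tests of the list over the 7 comparisons, and it sits at the threshold. Of 9 insulin and lipid regulators, 2 were called higher on HFD averaged over genotypes and 0 lower (5.56% and 4.84% of all rows), among them the nuclear receptor Ppara (0.77, adjusted p = 0.0208), and 1 was called higher in het-labelled livers (1.53%). For genotype averaged over diets edgeR and DESeq2 called 0 of these regulators, and 1 had an unadjusted p under 0.05.

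Some genes of the pericentral zone, the hepatocytes around the central vein, were lower on HFD, and the list did not move as a whole. Of 9 tested, 3 were called lower and 0 higher in wild-type livers (2.22% and 2.37% of all rows), namely Cyp1a2 (-1.41, adjusted p = 0.00025), the glutamate transporter Slc1a2 (-0.96, adjusted p = 0.0138) and the Wnt target Axin2 (-0.86, adjusted p = 0.0198). In het-labelled livers Cyp1a2 (-0.82, adjusted p = 0.00546) and the aminotransferase Oat (-0.60, adjusted p = 0.0345) were called lower, where 1.48% of all rows were. Lgr5 (0.11) and Tbx3 (0.16) had positive diet differences in wild-type livers that were not called. So did Tbx3 (0.49), Lgr5 (0.24), Axin2 (0.17) and Cyp2e1 (0.097) in het-labelled livers. The rest had negative ones. The median of the list was -0.21 in wild-type and -0.0045 in het-labelled livers, beside 0.023 and -0.0061 over all rows. Oat was also lower in het-labelled than in wild-type livers on HFD (-1.0, adjusted p = 0.0222), with 947 and 771 CPM in wild-type and 461 and 398 CPM in het-labelled libraries. Averaged over diets 2 of the 9 were called lower in het-labelled livers (2.03% of all rows), Oat (-0.80, adjusted p = 0.00706) and Rhbg, which is also on the ammonia list.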

How the data were processed

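Liver RNA of 8 libraries was measured by RNA-seq. Groups were read from the titles and labels. The authors deposited raw read counts per gene symbol, as the header and values show. The submitters' processing notes list build mm9 and the tools TopHat2, HTSeq, CASAVA and DESeq, with no versions or settings. Counts were analysed with edgeR 4.0.16 (R 4.3.3). Rows were filtered with filterByExpr, scaled with TMM factors and fitted by the quasi-likelihood method with 4 group means, and 2-sided p-values were adjusted by Benjamini-Hochberg over 12593 rows and called under 0.05. SEs and 95% intervals were calculated back from the test statistic and are approximate. The intervals include the variation between libraries of a group as fitted by edgeR, which may be technical. The limit on counts was a fixed setting and has no interval.

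Alternatives were RLE factors, DESeq2 1.42.0, no filter, fits of the compared groups alone, the merged major urinary protein row (7.42% to 13.6% of counts) left out, and each library left out. Lists, members and tests were chosen with earlier results of these data known. Named genes are all members, up to 4 called genes of a list with the smallest adjusted p, and the 5 rows most like each member. Some further genes of the lists, not all of them called, were named after their values were seen. The procedure was tested on simulated counts. Transcript lengths (GENCODE M21, GRCm38) and promoters (RefSeq) are of a later build than the counts. Some genes of the lists are not reported here.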

Additional observations from a re-analysis of the deposited data

How the results depend on the processing

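Limits: each group holds 2 libraries, so a library left out leaves a group with 1 that is assumed to vary like the rest, and the low counts of Aqp4 in het-labelled chow livers limit its folds. No paired analysis was possible because the library numbers run from 1 to 8 and no number occurs in more than 1 group.

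The lower Aqp8 in het-labelled livers averaged over diets was called under every alternative. Of the 4 tested members, 1 was called in place of 0 for diet in wild-type livers with DESeq2, with no filter and with only the compared groups, for diet in het-labelled livers with DESeq2, and for genotype on chow with DESeq2 and with no filter. Leaving out libraries gave 0 to 1 members called for diet in wild-type livers, genotype on HFD and diet averaged over genotypes. The cause was not tested.

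Over all rows, fits of only the compared groups called 1351 rows for diet in wild-type livers, 105 for diet in het-labelled livers and 26 for genotype on HFD. DESeq2 called 227 rows for genotype on chow, 241 for genotype on HFD and 29 for the interaction. With no filter 680 rows were called for diet in het-labelled livers, 314 for genotype on chow, 258 for genotype on HFD, 8 for the interaction and 760 for genotype averaged over diets. Leaving out each library gave 98 to 896 rows for diet in wild-type livers, 144 to 293 for diet in het-labelled livers, 1 to 268 for genotype on chow, 12 to 177 for genotype on HFD, 0 to 14 for the interaction, 546 to 1388 for diet averaged over genotypes and 23 to 722 for genotype averaged over diets.

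Differences changed sign only where they had not been called. Aqp11 for genotype on chow was -0.0094 with RLE factors, -0.010 with DESeq2 and -0.0080 with no filter. With libraries left out its log2 differences ran from -0.22 to 0.19 for genotype on chow, -0.0022 to 0.28 for diet in wild-type livers, -0.057 to 0.36 for the interaction and -0.037 to 0.16 for genotype averaged over diets. Those of Aqp1 ran from -0.44 to 0.25 for diet in het-labelled livers, -0.43 to 0.25 for genotype on chow, -0.12 to 0.27 for genotype on HFD, -0.15 to 0.52 for the interaction and -0.17 to 0.17 for genotype averaged over diets. Those of Aqp9 ran from -0.050 to 0.25 for diet in het-labelled livers, -0.26 to 0.054 for genotype on chow, -0.21 to 0.032 for genotype on HFD and -0.14 to 0.18 for the interaction. The interaction of Aqp8 ran from -0.63 to 0.13.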
